A study of Mus musculus with 6 samples.

Results

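The genes described here were the 7 that encode the core-binding factor and its ETO-family partners: the DNA-binding subunits Runx1, Runx2 and Runx3, their shared partner Cbfb, and the ETO corepressors Cbfa2t2, Cbfa2t3 and Runx1t1. They were taken by name from 24063 gene symbols; no measured value entered the rule, although earlier results of these data were known when it was set. All 7 were listed in every library. Transcripts were counted in LSK cells, a sorted bone marrow fraction without lineage markers that carries c-Kit and Sca-1 and is enriched for haematopoietic stem and early progenitor cells. There were 3 Asxl2-/- libraries and 3 control libraries, labelled wild type, from C57BL/6 mice. All 6 titles carry Mx1-cre and all mice had received pIpC, which mimics viral RNA and, through interferon, switches on the Mx1 promoter and with it the Cre recombinase. In the study's model Cre removes exon 11 of a floxed Asxl2 allele, which encodes a Polycomb-associated protein, and deletion is limited to cells that respond to the induction. The labels give no age. Nothing in the labels says whether the replicates came from separate mice; the study's methods call them biological replicates.

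Runx proteins bind DNA through the Runt domain, and Cbfb, which does not touch DNA itself, raises the affinity of that binding and stabilises the Runx protein. Runx1 is needed for definitive blood stem cells to form and is a frequent target in acute myeloid leukaemia. In the leukaemia with the t(8;21) translocation, in which ASXL2 is recurrently mutated, the DNA-binding part of RUNX1 is joined to the corepressor RUNX1T1, also called ETO. The ETO proteins do not bind DNA and bring histone deacetylase complexes to transcription factors. The comparison asked how the unfused genes on both sides of that fusion, and their relatives, were expressed in LSK cells with and without Asxl2.

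The files were of 2 kinds. Asxl2-/- replicates 1 and 3 and control replicate 2 had 1 count per transcript (gene-level files), and Asxl2-/- replicate 2 and control replicates 1 and 3 had 1 count per exon (exon-level files), where a read across a splice junction may enter the sum for every exon it touches. Total counts were 25528540 to 29136012 in the gene-level files and 53147729 to 55032075 in the exon-level files. Levels are given as CPM (counts scaled to library size) on TMM-scaled library sizes, and because the file kinds are not on 1 scale, values are best compared within a kind. Xist had 49540 to 66689 counts in the Asxl2-/- libraries and 590 to 3194 in the controls, and 4 Y-linked genes had at most 2 counts in the Asxl2-/- libraries and 1026 to 4807 in the controls. The sex of the animals therefore followed the genotype, and the effects of sex and genotype cannot be told apart for any gene below, although all 7 genes lie on autosomes. Total Asxl2 counts do not check the deletion, since only 1 exon is removed: the log2 fold change was 0.11 (SE 0.095, edgeR adjusted p = 0.469). The share of Asxl2 counts in exon 11 was 0.583% in Asxl2-/- replicate 2, against 10.3% in control replicate 1, and 492 of 4105 counts lay there in control replicate 3. In the gene-level files this exon cannot be read. Of the markers of the sort, Kit was at 359 to 421 CPM in Asxl2-/- cells and 280 to 431 in controls, and Ly6a, which encodes Sca-1, at 52.6 to 69.1 and 40.5 to 260.0.

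The member genes were all measurable except Runx1t1. Per kilobase of exon, their levels had the same order in 6 of 6 libraries: Cbfb, Runx3, Cbfa2t3, Runx1, Runx2, Cbfa2t2 and, near 0, Runx1t1. Cbfb ranged from 51.62 to 81.6 CPM per kilobase and stood apart from the next gene, Runx3, at 20.57 to 27.64. The log2 ratio of Cbfb to Runx3 was 1.47 ± 0.15 (SD, n = 6) and never fell below 1.29. Cbfa2t3 followed at 12.71 to 21.23, Runx1 at 10.25 to 16.96, Runx2 at 5.41 to 12.69 and Cbfa2t2 at 4.995 to 8.181 CPM per kilobase. The closest neighbours were Cbfa2t3 and Runx1, with a log2 ratio of 0.26 ± 0.10 (SD, n = 6; 0.12 to 0.40). That order depended on how density was taken: over the last exon alone, Runx1 was at 11.1, 9.65 and 9.34 CPM per kilobase in Asxl2-/- replicate 2 and control replicates 1 and 3, and Cbfa2t3 at 9.91, 9.77 and 9.16, so these neighbours changed places in 2 of the 3 exon-level files. Runx2 and Cbfa2t2 were separated by 0.45 ± 0.23 (SD, n = 6; 0.12 to 0.73). Cbfb exceeded the sum of the 3 Runx genes per kilobase in every library, by 1.43, 1.62 and 1.28 times in the Asxl2-/- libraries and by 1.38, 1.68 and 1.42 times in the controls.

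**Figure D1:**
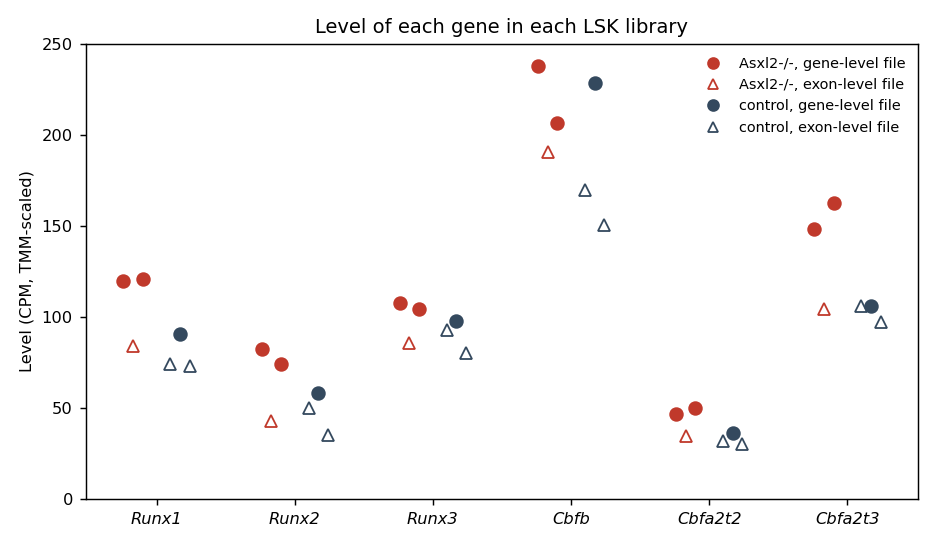
CPM of each member with measurable expression in the 6 libraries. Circles are gene-level files and open triangles are exon-level files, red for Asxl2-/- and dark blue for control, and each point is 1 library. Runx1 in the gene-level files was at 119.7 and 120.7 CPM in Asxl2-/- cells and 90.55 in the control.

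Runx1 (NM_001111023, chromosome 16, 92601466 to 92697329 on mm10, minus strand, 6 exons) encodes the Runt-domain factor best known for its role in adult blood stem and progenitor cells. Values are in replicate order here and below. The Asxl2-/- libraries had 3372, 4462 and 3425 counts, or 119.7, 83.84 and 120.7 CPM. The controls had 3872, 2607 and 3461 counts, or 74.29, 90.55 and 73.0 CPM. Within each kind of file the Asxl2-/- libraries were the higher ones. With the file kind taken out, log2 CPM averaged 6.67 ± 0.06 in Asxl2-/- cells and 6.37 ± 0.07 in controls (SD, n = 3 each), and the groups did not overlap. Such a lack of overlap was found for 44.3% of the 14145 genes tested. The log2 fold change was 0.30 (SE 0.086, 95% interval 0.09 to 0.51), or 1.23-fold (1.06 to 1.42), with an edgeR p of 0.0127 and an adjusted p of 0.103. Within file kinds the difference was 0.41 (gene-level) and 0.19 (exon-level). Without control replicate 2, the only gene-level control, the fitted value was 0.19, with an unadjusted edgeR p of 0.161.

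Runx2 (NM_001145920, chromosome 17, 44603989 to 44736648, minus strand, 7 exons), the osteoblast regulator that is also transcribed in early blood progenitors, had 2315, 2288 and 2106 counts in Asxl2-/- cells and 2618, 1671 and 1661 in controls. The CPM values were 82.15, 42.99 and 74.24 against 50.23, 58.04 and 35.03. Control replicate 1 was above Asxl2-/- replicate 2, its counterpart in file kind, and the groups overlapped. Runx2 had a log2 fold change of 0.22 (SE 0.18, 95% interval -0.21 to 0.66, edgeR adjusted p = 0.452), made up of 0.43 at gene level and 0.04 at exon level. Its SD among controls, 0.28 on the log2 scale, was the widest of the 6 genes tested. Bone and marrow stroma markers, some of them genes that Runx2 regulates in osteoblasts, summed to 153 to 327 CPM in Asxl2-/- cells and 50.1 to 206 in controls. Of these, 8 of 9 passed the filter on low counts and none was at 0 in all libraries. Col1a1 and Col1a2 made up most of the sum in every library, and Bglap, Sp7 and Ibsp were each at most 1.63 CPM. The part of these markers in the Runx2 count was not tested.

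Runx3 (NM_019732, chromosome 4, 135120645 to 135177990, plus strand, 6 exons), known for its roles in T cells, NK cells and sensory neurons, had 3031, 4554 and 2965 counts in Asxl2-/- cells and 4840, 2812 and 3795 in controls. These were 107.6, 85.57 and 104.5 CPM against 92.87, 97.67 and 80.04. The 3 control values spanned the exon-file value of the Asxl2-/- group. The log2 fold change was 0.05 (SE 0.094, edgeR adjusted p = 0.756), and its 95% interval, -0.18 to 0.28, leaves room for a change of up to 1.21-fold. The sign was not the same in both kinds of file (0.12 at gene level, -0.01 at exon level). Summed T and NK cell markers were at 114 to 167 CPM in Asxl2-/- cells and 126 to 158 in controls. Most of that sum was Nkg7, at 130, 156 and 104 CPM in Asxl2-/- cells and 114, 137 and 115 in controls. The T cell genes Cd3e, Cd3g and Cd3d were each at most 2.26 CPM, and Cd8a had a log2 fold change of -1.08.

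Cbfb (NM_001161458, chromosome 8, 105170674 to 105217988, plus strand, 6 exons), the common beta subunit, had 6699, 10154 and 5860 counts in Asxl2-/- cells and 8836, 6587 and 7129 in controls, the highest counts of the 7 genes in every library. The CPM values were 237.7, 190.8 and 206.6 against 169.5, 228.8 and 150.4. The single gene-level control lay between the Asxl2-/- libraries of its kind, whereas both exon-level controls lay below theirs. Cbfb had a log2 fold change of 0.11 (SE 0.11, 95% interval -0.17 to 0.38, edgeR adjusted p = 0.57), and the gene-level value (-0.05) had the opposite sign to the exon-level value (0.26).

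The ETO family was represented by 2 expressed genes. Cbfa2t3 (NM_001109873, chromosome 8, 122625136 to 122678175, minus strand, 12 exons), also called Eto2 or Mtg16, is a corepressor of the Tal1 complex in haematopoietic progenitors. It had 4178, 5561 and 4618 counts in Asxl2-/- cells and 5513, 3054 and 4620 in controls. The CPM values were 148.3, 104.5 and 162.8 against 105.8, 106.1 and 97.44. The gene-level libraries of the Asxl2-/- group were the high ones, and in the exon-level files Asxl2-/- replicate 2 lay between the controls. The log2 fold change was 0.30 (SE 0.14, 95% interval -0.04 to 0.63, edgeR adjusted p = 0.217). The value was 0.55 at gene level and 0.04 at exon level. Control replicate 2 is the only gene-level control, and without it the fitted value was 0.04. Asxl2-/- replicate 2 is the only exon-level library of its group, and without it the fitted value was 0.55. These fits therefore repeat the exon-level and gene-level values and are no separate evidence.

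Cbfa2t2 (NM_172860, chromosome 2, 154436484 to 154539356, plus strand, 11 exons), also called Mtgr1, was the lower of the expressed pair. It had 1311, 1838 and 1411 counts in Asxl2-/- cells and 1658, 1050 and 1440 in controls. The CPM values were 46.52, 34.54 and 49.74 against 31.81, 36.47 and 30.37. The Asxl2-/- libraries were higher within each kind of file, and after removal of the file kind the groups did not overlap, at 5.37 ± 0.09 and 5.10 ± 0.08 log2 CPM (SD, n = 3 each). For Cbfa2t2 the difference was 0.28 on the log2 scale (SE 0.10, 95% interval 0.03 to 0.52), or 1.21-fold (1.02 to 1.44), with an edgeR p of 0.0345 and an adjusted p of 0.153. Gene-level files gave 0.40 and exon-level files 0.15. Without control replicate 2, the only gene-level control, the fitted value was 0.15, with an unadjusted edgeR p of 0.324. That p was also over 0.05 without Asxl2-/- replicate 1 (0.0855), Asxl2-/- replicate 3 (0.101) or control replicate 3 (0.0712).

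Runx1t1 (NM_001111027, chromosome 4, 13751297 to 13895055, plus strand, 12 exons), the mouse counterpart of the ETO part of the fusion, was at the floor of these libraries. It had 1, 1 and 0 counts in Asxl2-/- cells and 2, 0 and 2 in controls. A count of 3, taken as the floor, corresponds to 0.0564 to 0.106 CPM, so every library was below it and no fold change is given. This floor covers counting error only. The gene did not pass the filter on low counts and was not tested.

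Of the 6 members tested, 0 passed an adjusted p of 0.05 in edgeR, against 331 of all 14145 genes (2.34%). DESeq2 also called 0 of 6, against 16.3% of all genes in that fit, and limma-voom 0 of 6, against 3.04%. At an unadjusted p under 0.05 there were 2 in edgeR (Runx1 and Cbfa2t2), 1 in DESeq2 and 2 in limma-voom, against 27.7%, 29.9% and 27.6% of all genes in these fits. All 6 fold changes were above 0, as were 50.1% of all fold changes, and the median log2 fold change of the 6 was 0.25 beside 0.001 over all genes. Runx1, the member with the smallest p, stood at percentile 75.4 of all fold changes. The groups did not overlap for 2 of the 6, a share below that of all genes. Among markers of other cell types, the summed erythroid list was at 248 to 497 CPM in Asxl2-/- cells and 536 to 789 in controls. It was lower in Asxl2-/- cells in gene-level files (282 and 497 against 536) and exon-level files (248 against 608 and 789). Of its 7 genes 0 passed in edgeR (3 at an unadjusted p under 0.05), and 2 had fold changes above 0. Ermap was the largest in every library. The mature myeloid list was at 140 to 348 and 80.0 to 146. Of its 6 genes 1 was raised, against 2.04% of all genes, and all 6 had fold changes above 0. None of the measured genes of these lists was at 0 in all libraries, and their part in the levels of the members was not tested. In such bulk samples, fewer cells of a type and less RNA per cell cannot be told apart.

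**Figure D2:**
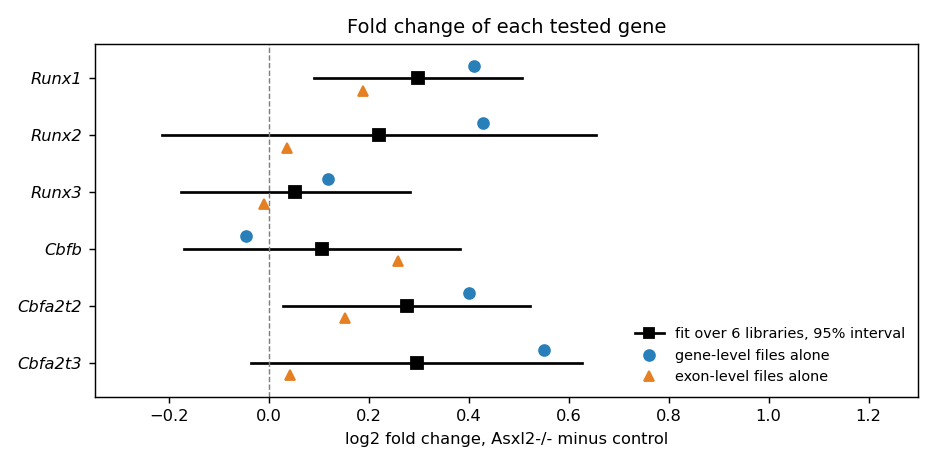
log2 fold change of each tested member, Asxl2-/- minus control. Black squares with lines are the edgeR fit over 6 libraries with its 95% interval, blue circles are the gene-level files alone and orange triangles the exon-level files alone. The interval lies above 0 for Runx1 (0.09 to 0.51) and Cbfa2t2 (0.03 to 0.52), whose values were 0.19 and 0.15 without control replicate 2, and the kinds of file lie on either side of 0 for Runx3 and Cbfb.

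The makeup of each family was also compared, since a gene's share of its family does not depend on library scaling. It did vary with the kind of file, Runx2 taking 19.2% to 22.2% of the summed Runx level per kilobase in gene-level files and 14.9% to 18.4% in exon-level files, so shares are compared within a kind, and no test was made. Runx3 was the largest component. In gene-level files it took 48.4% and 48.6% in Asxl2-/- replicates 1 and 3 and 53.7% in control replicate 2, and in exon-level files 54.4% in Asxl2-/- replicate 2 and 56.7% and 56.8% in control replicates 1 and 3. The Asxl2-/- libraries were thus the lower ones in each kind. The Runx shares make up a whole, so a lower share of Runx3 is the same contrast as higher shares of the others. Runx3 itself had a log2 fold change of 0.05. Runx1 took 29.4% and 30.7% in the Asxl2-/- gene-level files and 27.2% in the control, and 29.1% in the Asxl2-/- exon-level file and 24.8% and 28.3% in the controls, with the Asxl2-/- libraries higher in each kind. For Runx2 the order was not the same in both kinds, with 22.2% and 20.7% against 19.2% at gene level, and 16.4% between the controls at 18.4% and 14.9% at exon level.

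The ETO family varied little in makeup. Cbfa2t3 took 71.6% and 72.2% of the summed ETO level in the Asxl2-/- gene-level files and 69.8% in the control, and 70.6% in the Asxl2-/- exon-level file and 72.5% and 71.8% in the controls, so the order of the genotypes turned between the kinds. Cbfa2t2 took nearly all of the rest, 27.5% to 30.2%. Runx1t1 never exceeded 0.032%.

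**Figure D3:**
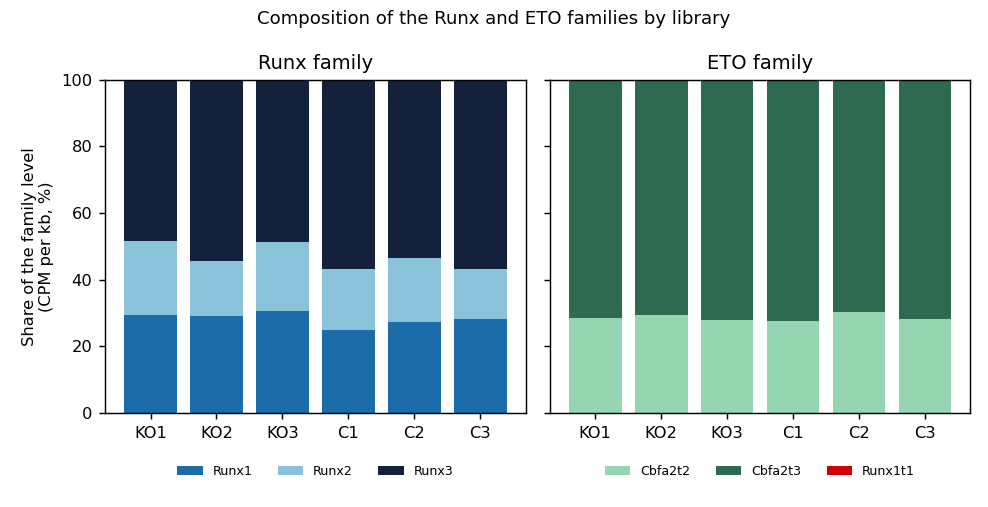
Share of each gene in the summed level of its family, in percent of CPM per kilobase, for the 3 Asxl2-/- libraries (KO1 to KO3) and the 3 controls (C1 to C3). Runx3 takes 48.4% to 56.8% of the Runx level and Cbfa2t3 69.8% to 72.5% of the ETO level. Runx1t1, at most 0.032%, is too small to be seen.

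Runx genes are classically transcribed from a distal and a proximal promoter that give proteins with different N-terminal ends, and the exon-level files show which first exons carried reads. For this view, promoter windows were taken from RefSeq on GRCm38.p6, whose coordinates are those of mm10, for 6 members and 9 transcript starts. Runx1t1 had no entry. The 3 distal starts of the Runx genes shared a sequence that no other member window held: 2 copies of the Runt-domain motif spaced by 2 bases. It is shown here for its likeness among the 3 genes, 30 bases each, 5′ to 3′ on the strand of the gene, with the 2 copies of the tandem in capitals. The Runx2 stretch ends in a further match, to TGCGGT, which lies outside the tandem and is left in lower case.
Runx1, chr16:92826025-92826054, minus strand: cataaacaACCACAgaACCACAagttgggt
Runx2, chr17:44814583-44814612, minus strand: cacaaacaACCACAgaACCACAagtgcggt
Runx3, chr4:135120503-135120532, plus strand: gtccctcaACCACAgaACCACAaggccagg
The first base of the tandem lies 29 bases into the transcript in Runx1, 24 bases into it in Runx2 and 134 bases before the start in Runx3. Searched as ACCACA, any 2 bases and ACCACA again, on both strands, it was present in 7 of 32851 windows of 300 bases (0.0213%). Another of these, that of Gm16225, overlaps the Runx3 window and holds the same site. The 6-base motifs TGTGGT and TGCGGT, searched on both strands and each also counted inside the tandem, were far more common, with at least 1 of them in 22.4% of windows. Among the members, the proximal windows of Runx1, Runx3 and Cbfa2t3 and the windows of Cbfb and Cbfa2t2 held none. A match of letters is a description of the sequence and says nothing of binding in these cells.

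In GC content the distal window lay below the proximal one for Runx1, Runx3 and Cbfa2t3. It was 45.0% at the distal start of Runx1 and 45.3% at that of Runx2, against 69.0% at the proximal start of Runx1. Runx3 had 63.7% at its distal and 77.3% at its proximal start, Cbfa2t3 63.7% and 81.7%, Cbfb 69.7% and Cbfa2t2 79.0%. For Runx1, read from both starts, and Cbfa2t3, read almost wholly from its distal one, the 250 bases before each start are printed, 5′ to 3′ on the minus strand of GRCm38.p6. Capitals mark the single 6-base motif found in them.
Runx1 distal, chr16:92826075-92826324: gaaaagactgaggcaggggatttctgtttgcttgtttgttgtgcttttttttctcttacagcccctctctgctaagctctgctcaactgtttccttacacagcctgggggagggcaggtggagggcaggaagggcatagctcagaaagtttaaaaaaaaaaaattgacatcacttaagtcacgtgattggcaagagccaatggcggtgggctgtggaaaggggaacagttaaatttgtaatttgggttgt
Runx1 proximal, chr16:92697330-92697579: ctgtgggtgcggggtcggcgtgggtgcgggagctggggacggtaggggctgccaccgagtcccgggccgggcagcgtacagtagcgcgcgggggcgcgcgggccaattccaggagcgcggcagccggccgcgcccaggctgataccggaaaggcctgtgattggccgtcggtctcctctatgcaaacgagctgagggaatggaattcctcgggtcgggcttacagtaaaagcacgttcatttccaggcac
Cbfa2t3 distal, chr8:122699110-122699359: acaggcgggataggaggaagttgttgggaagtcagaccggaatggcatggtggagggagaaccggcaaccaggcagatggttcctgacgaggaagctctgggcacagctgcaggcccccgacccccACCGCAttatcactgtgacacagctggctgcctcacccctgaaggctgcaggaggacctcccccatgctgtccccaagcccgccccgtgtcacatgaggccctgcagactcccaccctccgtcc
Cbfa2t3 proximal, chr8:122678176-122678425: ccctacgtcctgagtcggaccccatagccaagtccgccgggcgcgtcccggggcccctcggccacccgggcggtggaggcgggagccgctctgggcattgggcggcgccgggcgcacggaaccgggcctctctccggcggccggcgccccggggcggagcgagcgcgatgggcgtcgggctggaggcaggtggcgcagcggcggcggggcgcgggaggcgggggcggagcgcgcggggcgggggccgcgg

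Runx1 used both starts. The distal first exon (141 bases, 92825934 to 92826074) had 178 counts in Asxl2-/- replicate 2, 132 in control replicate 1 and 119 in control replicate 3. The part of the proximal first exon found in no distal transcript (1592 bases) had 194, 163 and 204. Of the counts on these first-exon parts, 47.8% (95% Wilson interval 42.8 to 52.9), 44.7% (39.2 to 50.5) and 36.8% (31.8 to 42.2) were distal. Exon 2 of the distal transcript (116 bases) is also absent from the proximal transcripts. It had 245, 207 and 168 counts and was left out, so these shares understate the distal part of all promoter-specific counts. The interval of the Asxl2-/- library overlapped that of control replicate 1 and not that of control replicate 3, so the controls differed between themselves by more than replicate 1 differed from the Asxl2-/- library. Intervals cover counting error only, and with 1 Asxl2-/- library of this kind no test of the genotype was made. The parts differ in length, so the share is not a ratio of transcripts. Per kilobase the distal first exon was at 23.7, 18.0 and 17.8 CPM, near the shared exon 3 at 23.2, 22.4 and 19.5. The whole proximal first exon, which includes those shared bases, was at 5.16, 4.77 and 5.02. By density the distal first exon was thus the higher one in each library.

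In the gene-level files the same question can be put to the transcript lines. The proximal Runx1 transcript (NM_001111023) exceeded the distal one (NM_001111021) by 44 counts (1.3% of the proximal count) in Asxl2-/- replicate 1 and 20 (0.584%) in replicate 3, and by 241 (9.24%) in control replicate 2. This difference comes from reads counted for 1 line and not for the other, and it was smaller in both Asxl2-/- libraries than in the 1 control. A read that also touches a shared exon may count for both lines, so the difference need not equal the counts on promoter-specific bases. In the exon-level files the distal line, summed over its exons, was instead the higher one in every library. Taken by line, the Runx1 fold change was 0.54 (distal) and 0.41 (proximal) on the log2 scale in the gene-level files, and 0.21 and 0.19 in the exon-level files. Nearly all reads are shared by the lines, so these values are not independent of each other.

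Runx2 was read from its proximal start. The distal first exon (459 bases, 44814169 to 44814627) had 1 count in Asxl2-/- replicate 2, 0 in control replicate 1 and 2 in control replicate 3, against 110, 127 and 80 on the proximal-only bases. The distal share was 0.901% (Wilson interval 0.159 to 4.93) and 2.44% (0.671 to 8.46) in the libraries with a count, and 0 of 127 in the other, where the Wilson interval reaches 2.94% and the floor of 3 counts would be 2.36%. The distal isoform, which is the one prominent in osteoblasts, was therefore at the floor in all 3 libraries. In the gene-level files the proximal line exceeded the distal line by 79 (3.41%), 59 (2.8%) and 94 (5.63%) counts in Asxl2-/- replicates 1 and 3 and control replicate 2.

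For Runx3 the files list only the transcript from the distal start. Its first exon (519 bases) had 64, 58 and 32 counts in Asxl2-/- replicate 2 and control replicates 1 and 3, or 2.32, 2.14 and 1.3 CPM per kilobase, and its second exon had 232, 317 and 226, or 16.2, 22.6 and 17.7 CPM per kilobase. The distal exon was thus read far below the exon that follows it in each library. Cbfb, with 1 start in the files, also had a lower first exon, at 28.1, 29.9 and 24.8 CPM per kilobase against 138, 134 and 111 on exon 2. The drop in Runx3 was the larger, but such a drop alone does not measure the use of a start. RefSeq on GRCm38.p6 places a proximal start at 135152545, before exon 2 (135152788 to 135153056), and the bases between were not counted in these files.

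Cbfa2t3 showed the reverse of Runx2. Its distal first exon (295 bases, 122698815 to 122699109) had 262, 286 and 240 counts in Asxl2-/- replicate 2 and control replicates 1 and 3, and the proximal one (314 bases, 122677862 to 122678175) had 4, 5 and 6. The distal share was 98.5% (96.2 to 99.4), 98.3% (96.0 to 99.3) and 97.6% (94.8 to 98.9), and the intervals of all 3 libraries overlapped. In the gene-level files the distal transcript had the higher count in all 3, by 182 and 184 counts in the Asxl2-/- libraries and 147 in the control. The transcript used above for Cbfa2t3, the longest, carries the little-read first exon, and with the transcript of highest count in its place its log2 fold change was 0.29.

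**Figure D4:**
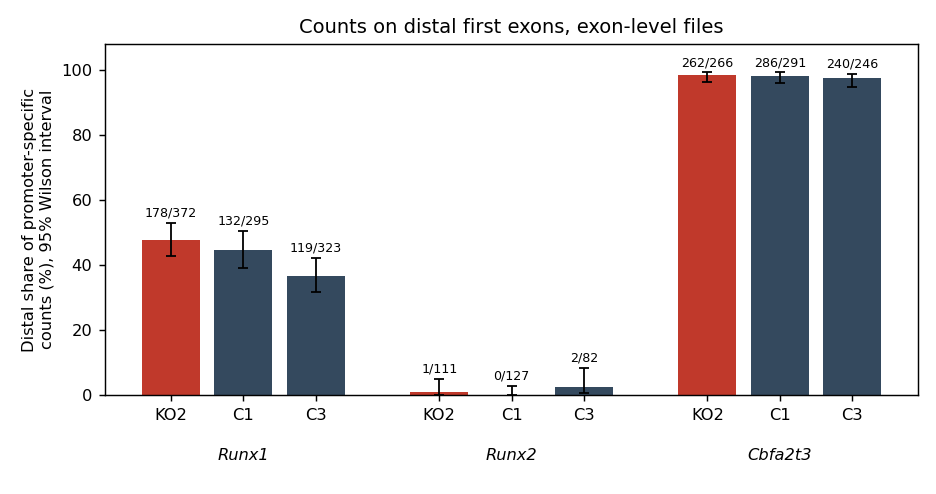
Distal share of counts on promoter-specific first-exon bases, in percent, for Runx1, Runx2 and Cbfa2t3 in the 3 exon-level files (KO2 is Asxl2-/- replicate 2, C1 and C3 are control replicates 1 and 3). Bars show the share, lines its 95% Wilson interval, and the fractions printed over the bars give distal counts over all counts on these bases. Counts on exon 2 of the distal Runx1 transcript are left out. The distal and proximal parts of Runx1 are 141 and 1592 bases long, so its share is not a ratio of transcripts. Runx1 lies between 36.8% and 47.8%, Runx2 at or below 2.44% and Cbfa2t3 at or above 97.6%.

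Cbfb and Cbfa2t2 have 1 start in the files. Counts of Cbfb went from 569, 592 and 446 on exon 1 (380 bases) to 5732, 4817 and 4022 on the last exon (2085 bases), which held 56.5%, 54.5% and 56.4% of the counts of the gene. Per kilobase the last exon was at 51.7, 44.3 and 40.7 CPM, below exon 4 at 180, 153 and 134. Cbfa2t2 had 7, 8 and 7 counts on exon 1 (153 bases), 0.381% to 0.486% of the total, and 63.4% to 64.9% on the last exon, which is 4473 of its 6080 bases. Per kilobase exon 1 was at 0.86, 1.0 and 0.965 CPM, exon 9 at 24.8, 23.9 and 18.6, and the last exon at 4.89, 4.56 and 4.41. The libraries of both genotypes were alike in this.

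Genes whose pattern over the 6 libraries was most like a member's were found by the root-mean-square difference of centred log2 CPM after removal of the file kind. Nearest to Runx1 were Elf1 (0.0126) and Zfp148 (0.0131), to Runx2 Atxn1 (0.0365) and Nhsl1 (0.0384), and to Runx3 Mettl25 (0.0129) and Zfp46 (0.0136). Nearest to Cbfb were Zbtb12 (0.0089) and Smurf1 (0.02), to Cbfa2t2 Bnip3l (0.0145) and Sp1 (0.0203), and to Cbfa2t3 Fam13b (0.0128) and Gse1 (0.016). Within a wider distance of 0.1 there were many more genes over so few libraries: 907 lay within it of Runx1, 1232 of Runx3 and 132 of Runx2.

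Genes that work with the Runx and ETO proteins, or that Runx factors regulate, were read from 7 lists of 76 genes, of which 72 could be tested. With edgeR, 7 of the 72 were raised (2.04% of all genes) and 1 was lowered (0.304% of all genes) in Asxl2-/- cells. The number called changed with the libraries included, as did the number over all genes. With Asxl2-/- replicate 1 or control replicate 3 left out, 0 of 72 passed (20 and 22 at an unadjusted p under 0.05), against 0.109% and 0.0636% of all genes in these fits. With Asxl2-/- replicate 3 left out 3 passed (0.651% of all genes), and with control replicate 2 left out 1 of 73 (0.834%). With Asxl2-/- replicate 2 left out 14 passed (4.67%), and with control replicate 1 left out 15 (9.33%). DESeq2 called 20, against 16.3% of all genes.

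None of the 14 corepressors passed in edgeR (3 at an unadjusted p under 0.05), and their median log2 fold change was 0.04. Tle1, a Groucho-type corepressor that binds the C-terminal end of Runx proteins, was at 9.44, 12.4 and 7.54 CPM in Asxl2-/- cells and 17.7, 17.5 and 19.8 in controls, without overlap (log2 difference -0.82, SE 0.17, adjusted p = 0.0614 by edgeR). With the file kind taken out, 44.3% of all genes had groups without overlap. None of the 10 tested coactivators and modifiers passed either (2 at an unadjusted p under 0.05), with a median of 0.19. The arginine methyltransferases Prmt1 and Carm1 had -0.35 (edgeR adjusted p = 0.111) and -0.35 (edgeR adjusted p = 0.119).

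Among the 15 DNA-binding partners, 1 passed (8 at an unadjusted p under 0.05, against 27.7% of all genes), and the median was 0.04. Zbtb16, which encodes the zinc-finger repressor PLZF, fell from 11.9, 13.9 and 10.9 CPM in controls to 6.49, 6.28 and 6.13 in Asxl2-/- cells (log2 fold change -1.0, SE 0.15, edgeR adjusted p = 0.0334; -1.14 at gene level, -0.86 at exon level). Of the 7 tested myeloid genes, 0 passed in edgeR (1 at an unadjusted p under 0.05) with a median of -0.20: the receptor gene Csf3r had 0.64 (edgeR adjusted p = 0.0854) and Csf1r -0.57 (edgeR adjusted p = 0.532), of opposite sign at gene level (-1.76) and exon level (0.57). Of the 9 cell-cycle and survival genes, 0 passed in edgeR (1 at an unadjusted p under 0.05) with a median of 0.08, Id2 having -1.37 (edgeR adjusted p = 0.113) and Bcl2 0.33 (edgeR adjusted p = 0.197).

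Both lists with raised genes contained lineage genes. Of 8 tested megakaryocyte genes, 2 rose, against 2.04% of all genes, and the median was 0.99. An unadjusted edgeR p under 0.05 was found for 6, against 27.7% of all genes. Pf4, a chemokine of platelet granules, was at 49.1, 146.0 and 32.4 CPM in Asxl2-/- cells and 37.7, 13.2 and 17.5 in controls (log2 fold change 2.03, SE 0.35, edgeR adjusted p = 0.0496), with Asxl2-/- replicate 2 the highest. Summed megakaryocyte markers were at 276 to 787 CPM in Asxl2-/- cells and 136 to 331 in controls, with 6 of 6 markers tested and none at 0. The markers share Pf4 and Itga2b with the list.

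Of 9 lymphoid genes, 5 rose, against 2.04% of all genes, and the median was 1.70. An unadjusted edgeR p under 0.05 was found for 7, against 27.7% of all genes. Cd79a, a part of the B cell receptor, was at 23.0, 22.5 and 19.1 CPM in Asxl2-/- cells and 7.75, 5.63 and 5.31 in controls (log2 fold change 1.84, SE 0.19, edgeR adjusted p = 0.0178). Ebf1, an early B cell regulator that acts with Runx1 on Cd79a, was at 18.5, 18.3 and 26.2 against 5.16, 4.55 and 3.46 (2.19, SE 0.23, edgeR adjusted p = 0.0183). The recombinase gene Rag1 was at 35.2, 16.6 and 52.8 against 5.45, 6.84 and 4.05 (2.24, SE 0.29, edgeR adjusted p = 0.0268). For each of the 3, named for having the smallest p in the list, the groups did not overlap. With the file kind taken out, that was so for 44.3% of all genes. The other raised genes were Blnk and Pou2af1, whereas the T cell genes Cd4, Cd8a and Zbtb7b did not pass, with 1.24, -1.08 and 0.33. B cell markers moved with them: their sum was 116 to 119 CPM in Asxl2-/- cells and 30.3 to 43.8 in controls, with 6 of 6 tested and none at 0. Their part in the lymphoid genes, and that of the megakaryocyte markers in Pf4, was not tested.

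**Figure D5:**
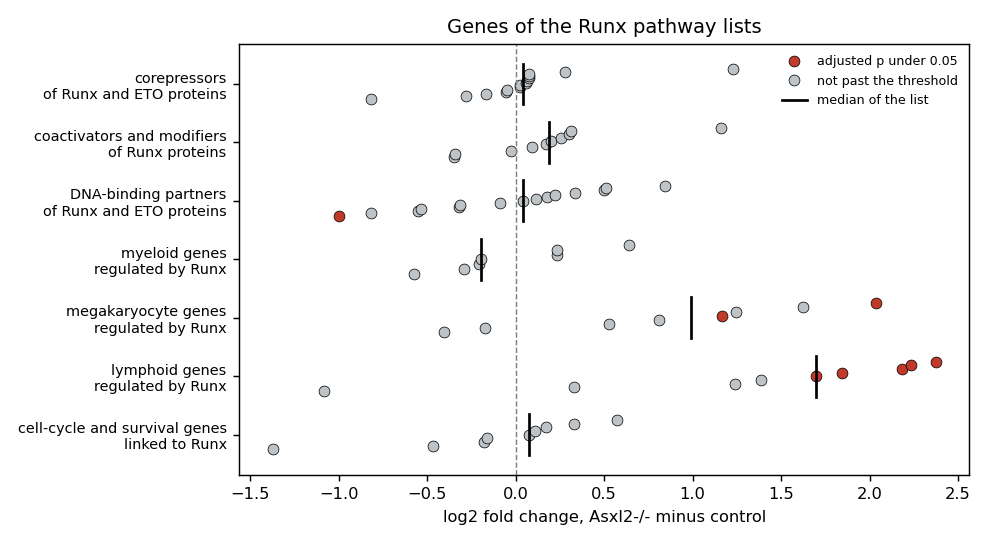
log2 fold change of each tested gene in the 7 lists, Asxl2-/- minus control. Each point is 1 gene, red where the edgeR adjusted p is under 0.05, and the black line is the median of the list. The red points are 5 lymphoid and 2 megakaryocyte genes above 0 and Zbtb16 below 0 among the DNA-binding partners.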

How the data were processed

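RNA was sequenced from LSK cells in 3 Asxl2-/- and 3 control libraries, grouped by genotype label, as poly(A)-selected, unstranded libraries. The deposited values are raw counts of reads on mm10 with RefSeq transcripts; the authors' processing notes list STAR, featureCounts and DESeq2, with no versions or roles, and the study's methods name Cuffdiff. Each symbol was represented by its longest transcript (ties by lowest accession), and exon counts were summed, so spliced reads can count more than once and reads of isoforms are not separated. Isoforms had separate lines for 4914 symbols.

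Counts were tested with edgeR 4.0.16 in R 4.3.3 (TMM, filterByExpr, quasi-likelihood, file kind and group, 3 residual degrees of freedom), two-sided, with Benjamini-Hochberg adjustment over all 14145 genes and a threshold of 0.05. Replicate SDs were taken after removal of the file kind and are somewhat too small. The p-values measure the spread between these libraries. Intervals on shares are 95% Wilson intervals. Genes named were the members, Asxl2, Xist, Kit and Ly6a, and the 2 nearest genes to each member. From each list, up to 3 passing genes of smallest p or else the 2 of smallest p were named. Gm16225, the other lymphoid genes and the other marker genes were named after their values were seen. The members and lists were chosen with earlier results of these data known. The lymphoid and megakaryocyte differences were among those results and are no independent evidence. Alternatives were DESeq2 1.42.0, limma-voom (limma 3.58.1), other scalings, filters and transcripts, file kinds apart, replicate blocks and leaving out each library; those for the lists were added after seeing the data. Promoter windows came from RefSeq, and protein sequences were not used here. Values of 2 list genes that the naming rule chose are not reported here.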

Additional observations from a re-analysis of the deposited data

How the results depend on the processing

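The count of members past the threshold was 0 in edgeR and in every alternative run except the replicate block with file kind, where it was 3: Runx1 (edgeR adjusted p = 0.00819), Cbfa2t3 (0.00913) and Cbfa2t2 (0.0363). That fit has 1 residual degree of freedom. It called 5179 genes in all (36.6%) and 41 of the 72 list genes. With the replicate block without file kind, 0 members and 5 list genes passed. Same-numbered libraries deviated together with correlations of 0.31, 0.046 and 0.0083, and not every library correlated best with its own number. File kind was not removed first, and each same-numbered pair mixes the kinds of file, so these values cannot exclude a pairing. The labels name no shared litter or day, and the number is the only link they give.

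Over the 19 alternatives the log2 fold change ranged from 0.19 to 0.45 for Runx1 (adjusted p 0.0764 to 0.485 in edgeR with 1 library left out), from 0.01 to 0.48 for Runx2, from 0.15 to 0.41 for Cbfa2t2 (0.111 to 0.631) and from 0.04 to 0.55 for Cbfa2t3 (0.0759 to 0.907). Runx3, 0.05 as reported, lay between -0.0129 and 0.1186 with 1 library left out; it turned to -0.0129 without control replicate 2 and -0.0108 in the exon-level files alone. Cbfb, 0.11 as reported, lay between -0.0425 and 0.2567 with 1 library left out; it turned to -0.0425 without Asxl2-/- replicate 2 and -0.0461 in the gene-level files alone. Leaving out control replicate 2 or Asxl2-/- replicate 2 removes the only library of its group in its kind of file. The genotype difference then rests on the other kind, so these fits are no separate evidence. The cause of the changes of sign was not tested. The count over all genes was 331 in edgeR, 2302 in DESeq2, 161 with library size only, and 9 to 1312 with 1 library left out (9 without control replicate 3). The list count of 8 was 20 in DESeq2, 3 with library size only and 0 to 15 with 1 library left out. With the longest exon only, the mean ETO share over exon-level files was 32.5% for Cbfa2t2, 67.5% for Cbfa2t3 and 0.0432% for Runx1t1. Depth limits Runx1t1 and the distal first exon of Runx2, where counts were at the floor.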
